A study of Mus musculus with 18 samples.

Results

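NIH3T3 mouse fibroblasts treated with tunicamycin for a time labelled 405 min were compared with the same cells at a time labelled 45 min, 3 samples against 3 out of 18 in the series. The question was what the late response adds to, and what it takes back from, the response in the samples labelled 45 min. All 6 samples were taken by the time given in their labels, and no measured value was used to choose them. The cells stably carried DD-GFP, a destabilizing domain derived from FKBP and fused to superfolder GFP, and were a population sorted for high GFP and not a clone. In all groups used here the Shield-1 ligand that keeps the domain folded stayed in the medium. The groups were untreated cells (3 samples, 0 min) and cells at 45, 135 and 405 min of tunicamycin (3 samples each). No untreated samples carry a later time, so the drug, its duration and the time in culture cannot be told apart. Between 44046381 and 66478268 reads fell on genes in the samples labelled 45 min and between 57407105 and 62941548 in those labelled 405 min, so that 3 reads, taken as the limit of detection, correspond to 0.0451 to 0.0681 CPM without TMM factors. CPM is the unit of all levels here (reads of a gene scaled to the library's total by the CPM convention), with TMM factors for the levels of single genes. The labels name replicates but not separate cultures, so the p-values measure the spread between these samples, which may be technical.

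Tunicamycin blocks the enzyme DPAGT1, which starts the lipid-linked sugar chain that the endoplasmic reticulum (ER) attaches to new glycoproteins. Proteins that lack this chain fold badly, and 3 sensors in the ER membrane respond in what is called the unfolded protein response. PERK phosphorylates eIF2α, which lowers general translation and favours ATF4, a transcription factor that induces CHOP (Ddit3), amino acid synthesis and amino acid uptake, and this branch is shared with other stresses as the integrated stress response. IRE1 splices the Xbp1 mRNA, and ATF6 is cut in the Golgi. Both yield transcription factors that raise ER chaperones, ER-associated degradation and secretory machinery.

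Before the results, 3 properties of the libraries need to be stated. First, the levels did not follow the order of the labelled times. Atf3, a transcription factor of the integrated stress response, had 1.27, 1.04 and 0.907 CPM in untreated cells, 28.6, 30.9 and 34.1 in the samples labelled 45 min, 5.83, 4.02 and 4.94 in those labelled 135 min and 95.8, 97.1 and 93.4 in those labelled 405 min, so the samples labelled 135 min lay between untreated cells and those labelled 45 min. Egr1, a transcription factor induced within minutes by many stimuli, had 184, 156 and 127 CPM in untreated cells and 146, 109.7 and 109 CPM at the label 45 min, and was highest at the label 135 min, with 728, 729 and 671 CPM. Against untreated cells, 813 of 12731 genes tested (6.39%) passed the test at the label 45 min and 12 (0.0943%) at the label 135 min (edgeR quasi-likelihood test, adjusted p under 0.05, with 2382 genes at an unadjusted p under 0.05 for the latter). Whether the 2 labels were meant for these samples was not tested, the labels are used as given, and the count of called genes with the samples labelled 135 min in place of those labelled 45 min stands beside the main one. The 2 steps named below run from untreated cells to the label 45 min and from there to 405 min. They leave out the label 135 min, so a rise at both steps is not a steady rise over the labelled times.

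Second, transcript length moved with the comparison. The mean transcript length per read was 2972 to 3160 bases in the samples labelled 405 min, 3693 to 3788 bases at 45 min and 3412 to 3667 bases in untreated cells. With the genes split by length into 5 classes of equal size, among the shortest class (291 to 1764 bases) 1282 were higher and 197 lower at 405 than at 45 min, with a median log2 fold change of 0.45. Among the longest class (4888 to 28200 bases) 168 were higher and 1420 lower, with a median of -0.54. The part of transcript length in these changes was not tested, and where an offset for length ends a call, or moves a called value by more than 1.5 times, its value is given beside the result. Lastly, the untreated replicate 1 stood apart from the other untreated samples (Pearson r of log2 CPM 0.979 and 0.980, against 0.998 between those), which touches the comparisons with untreated cells but not that of 405 with 45 min. In the same way the replicate 1 labelled 135 min stood apart from the other samples with that label (0.973 and 0.972, against 0.9965 between those). The part of this spread in the count of 12 genes called at that label against untreated cells was not tested.

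**Figure D1:**
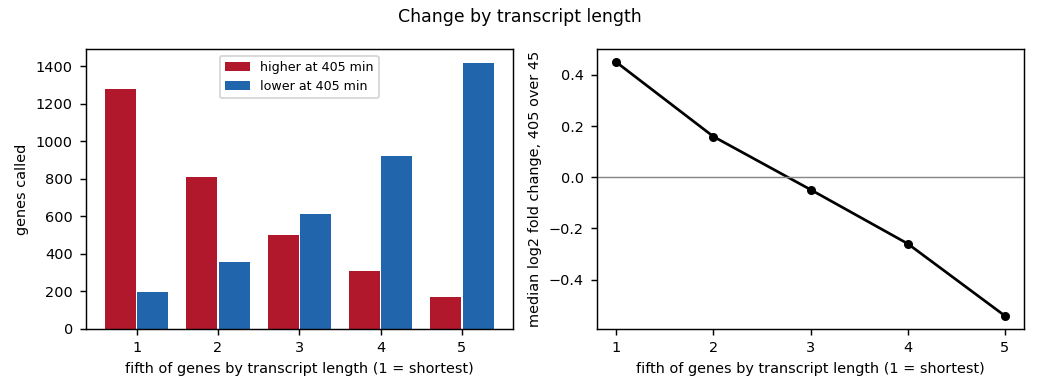
Genes called higher or lower at 405 than at 45 min of tunicamycin (left, number of genes) and the median log2 fold change (right) in 5 classes of transcript length. The called genes went from 1282 higher and 197 lower in the shortest class to 168 higher and 1420 lower in the longest.

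The cells carried fibroblast transcripts in every group. All 9 fibroblast markers were detected, with a summed level of 35400 to 45100 CPM at 45 min and 20300 to 23000 CPM at 405 min. The sums of markers are scaled to library totals without TMM factors. The 6 epithelial markers summed to at most 0.587 CPM and the 5 endothelial markers to at most 0.918 CPM in untreated cells and in the samples labelled 45 and 405 min. Epcam, Cldn4, Emcn and Emr1, defining markers of epithelial cells, endothelial cells and macrophages, had no read in these 9 libraries. The macrophage list summed to 17.8 to 19.7 CPM at 45 min and 11.4 to 12.3 CPM at 405 min, nearly all of it from Cd68, Cd14 and Csf1r, and Ptprc had at most 2 reads per library.

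Between 45 and 405 min many genes changed in both directions. Of 12731 genes tested, 3110 (24.4%) were higher and 3574 (28.1%) lower at 405 min, and 637 of the former and 1363 of the latter changed by at least 1 on the log2 scale. The groups did not overlap for 7730 genes (60.7%), and the median over all genes was -0.06. With total counts in place of TMM scaling the split was 2285 higher and 4497 lower and the median of all genes shifted to -0.21. With the samples labelled 135 min in place of those labelled 45 min, 2653 genes (20.8%) were higher and 2925 (23%) lower at 405 min. Against the same untreated cells, 539 genes (4.23%) were higher and 274 (2.15%) lower at 45 min, and 2758 (21.7%) were higher and 3183 (25%) lower at 405 min. The counts at 45 min rested on single libraries: without the untreated replicate 1 they were 1455 higher and 1054 lower, and without any of the other 5 libraries in turn they were 55 to 203 higher and 3 to 64 lower. Of 44 genes named by rule and called at 45 min against untreated cells, 16 kept the call with any 1 library left out. Among the genes described here these calls were kept by Actg2, Arid5a, Atf3, Cdh3, Chac1, Cry2, Ddit3, Fgf21, Gadd45a, Herpud1, Jdp2, Kcnk10, Klf4, Myc, Myd116, Nfil3, Per2, Sesn2, Slc3a2, Socs2, Tm4sf1, Trib3 and Vegfa, and every other gene described as called at 45 min against untreated cells lost that call at least without the replicate 2 of 45 min. The comparisons share samples, so their values are set side by side and not counted against each other.

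The largest rises were led by proteins of the ER lumen. Creld2 (mm9 chr15:88650076-88657111), an ER protein with disulfide isomerase activity, had 65.5, 75.4 and 89.6 CPM at 45 min and 2223, 2406 and 2487 CPM at 405 min, and the untreated cells (67.6, 69.8 and 72.3 CPM) overlapped those at 45 min (log2 fold change 4.95, SE 0.16, adjusted p = 1.49e-06 for 405 against 45 min; edgeR). Sdf2l1, a partner of ER chaperones, rose from 29.0 ± 5.70 to 894 ± 73.9 CPM (SD, n = 3; log2 fold change 4.95, SE 0.18, adjusted p = 1.49e-06). Manf, a secreted ER stress protein, had 119, 122 and 95.5 CPM at 45 min and 1594, 1862 and 2208 CPM at 405 min (log2 fold change 4.07, SE 0.17, adjusted p = 2.05e-06). The oxidase Ero1lb, which supplies disulfide bonds, rose from 1.13 ± 0.195 to 21.8 ± 2.46 CPM and the cochaperone Dnajc3, also known as p58IPK, from 44.9 ± 11.2 to 478 ± 44.8 CPM (SD, n = 3; log2 fold changes 4.25 and 3.41, adjusted p = 2.05e-06 and 6.14e-06). None of the 5 was called at 45 min against untreated cells, where the log2 fold changes were 0.14 for Creld2, 0.09 for Sdf2l1, 0.26 for Manf, -0.72 for Ero1lb and 0.03 for Dnajc3. Without the untreated replicate 1 they were 0.11, 0.24, 0.07, -0.85 and -0.13, of which that of Ero1lb was called lower (adjusted p = 0.0365).

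Other genes among the 12 largest rises had no ER folding role in their usual description. Avil, which encodes the actin-binding protein advillin, had 1.58, 1.32 and 1.29 CPM in untreated cells, 3.66, 4.68 and 5.63 CPM at 45 min and 102, 108 and 103 CPM at 405 min, so its level rose at both steps (log2 fold change 1.74, SE 0.22, adjusted p = 0.00859 for 45 min against untreated; log2 fold change 4.49, SE 0.17, adjusted p = 1.49e-06 for 405 against 45 min). The same order held for Car6, a secreted carbonic anhydrase (2.23, 9.36 and 116 CPM on average), for the calcium pump Atp2a3 of the ER membrane (0.402, 1.25 and 14.2 CPM) and for the kinase gene Dyrk4 (0.336, 1.14 and 15.8 CPM), all 3 called in both steps. The log2 fold changes at 405 min were larger against the samples labelled 135 min than against those labelled 45 min. They were 5.43 and 4.49 for Avil, 5.15 and 3.63 for Car6, 4.76 and 3.51 for Atp2a3 and 4.97 and 3.79 for Dyrk4. Slc2a6, a sugar transporter of the GLUT family, and Cd74, the invariant chain of class II antigen presentation, rose late, from 8.43 to 96.4 CPM and from 0.345 to 7.52 CPM (log2 fold changes 3.52 and 4.49, adjusted p = 1.49e-06 and 7.08e-06). Neither was called at 45 min against untreated cells.

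Transcription factors of this response bind short sequences near gene starts, and the 150 bases before the start are shown for 7 genes, 4 that were not called at 45 min against untreated cells and 3 that were called in both steps. The sequences are those of RefSeq on build GRCm38.p6, written 5′ to 3′ on the strand of the gene, with the matched letters in capitals. Creld2 (chr15:88819496-88819645, plus strand), Hspa5 (chr2:34771940-34772089, plus strand), Dnajc3 (chr14:118937782-118937931, plus strand) and Syvn1 (chr19:6046426-6046575, plus strand) hold the ER stress element, searched on both strands as CCAAT and CCACG with 9 bases between them and found on the opposite strand in Creld2. In Herpud1 (chr8:94386279-94386428, plus strand) the capitals mark the related element ERSE-II (ATTGG and CCACG with 1 base between them) and the C/EBP-ATF core TTGCATCA. The same core is marked in Atf3 (chr1:191183334-191183483, minus strand) and in Fgf21 (chr7:45615491-45615640, minus strand).
Creld2: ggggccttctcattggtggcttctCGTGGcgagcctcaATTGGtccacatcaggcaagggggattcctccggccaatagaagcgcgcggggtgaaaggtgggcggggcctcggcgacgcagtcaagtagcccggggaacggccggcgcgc
Hspa5: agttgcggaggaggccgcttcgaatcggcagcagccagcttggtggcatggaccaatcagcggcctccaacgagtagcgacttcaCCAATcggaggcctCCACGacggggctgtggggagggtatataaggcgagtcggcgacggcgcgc
Dnajc3: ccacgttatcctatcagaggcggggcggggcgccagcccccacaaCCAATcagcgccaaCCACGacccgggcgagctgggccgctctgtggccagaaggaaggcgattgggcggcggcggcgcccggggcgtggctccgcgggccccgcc
Syvn1: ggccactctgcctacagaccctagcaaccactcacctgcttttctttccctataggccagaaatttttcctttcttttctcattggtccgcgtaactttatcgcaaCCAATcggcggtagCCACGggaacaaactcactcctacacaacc
Herpud1: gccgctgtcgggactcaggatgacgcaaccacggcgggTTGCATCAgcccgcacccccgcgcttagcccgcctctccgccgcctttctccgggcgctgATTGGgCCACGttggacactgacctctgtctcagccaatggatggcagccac
Atf3: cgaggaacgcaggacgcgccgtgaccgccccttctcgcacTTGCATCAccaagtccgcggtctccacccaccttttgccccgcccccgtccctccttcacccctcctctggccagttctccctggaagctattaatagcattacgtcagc
Fgf21: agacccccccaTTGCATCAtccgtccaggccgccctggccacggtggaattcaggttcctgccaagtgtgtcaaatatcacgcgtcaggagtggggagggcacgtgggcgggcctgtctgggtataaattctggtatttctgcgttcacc

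Over the window from 250 bases before to 50 bases after a start, the ER stress element was found in 8 of the 27 ER chaperone genes with a promoter in the table (29.6%), against 20 of 10059 genes tested with a promoter (0.199%) and 0.119% of all 32851 promoters. The 8 genes were Hspa5, Hsp90b1, Canx, Calr, Dnajc3, Creld2, Pdia6 and Ero1lb, and Canx was the only one of them that did not pass the test at 405 against 45 min (adjusted p = 0.0911, log2 fold change 0.37). In Hspa5 the element lay from position -65 to -47 and in Creld2 from -126 to -108, counted back from the start. The C/EBP-ATF core was found in 6 of the 20 integrated stress response genes with a promoter (30.0%), against 75 of the 10059 genes (0.746%): Atf3, Chac1, Nupr1, Jdp2, Vldlr and Fgf21. Among the genes with a promoter, the ER stress element was held by 10 of those called higher at 405 than at 45 min (0.392%). It was held by 1 of those called lower (0.0361%) and by 9 of those not called (0.19%). These are few genes, and the 10 include the called chaperone genes just named. No matches of 2 different motifs shared bases in the listed genes. The motifs were chosen as known elements of this response, so motifs and lists are not independent. The shares are therefore a description and not a test. A match describes the letters only, and binding was not measured here.

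**Figure D2:**
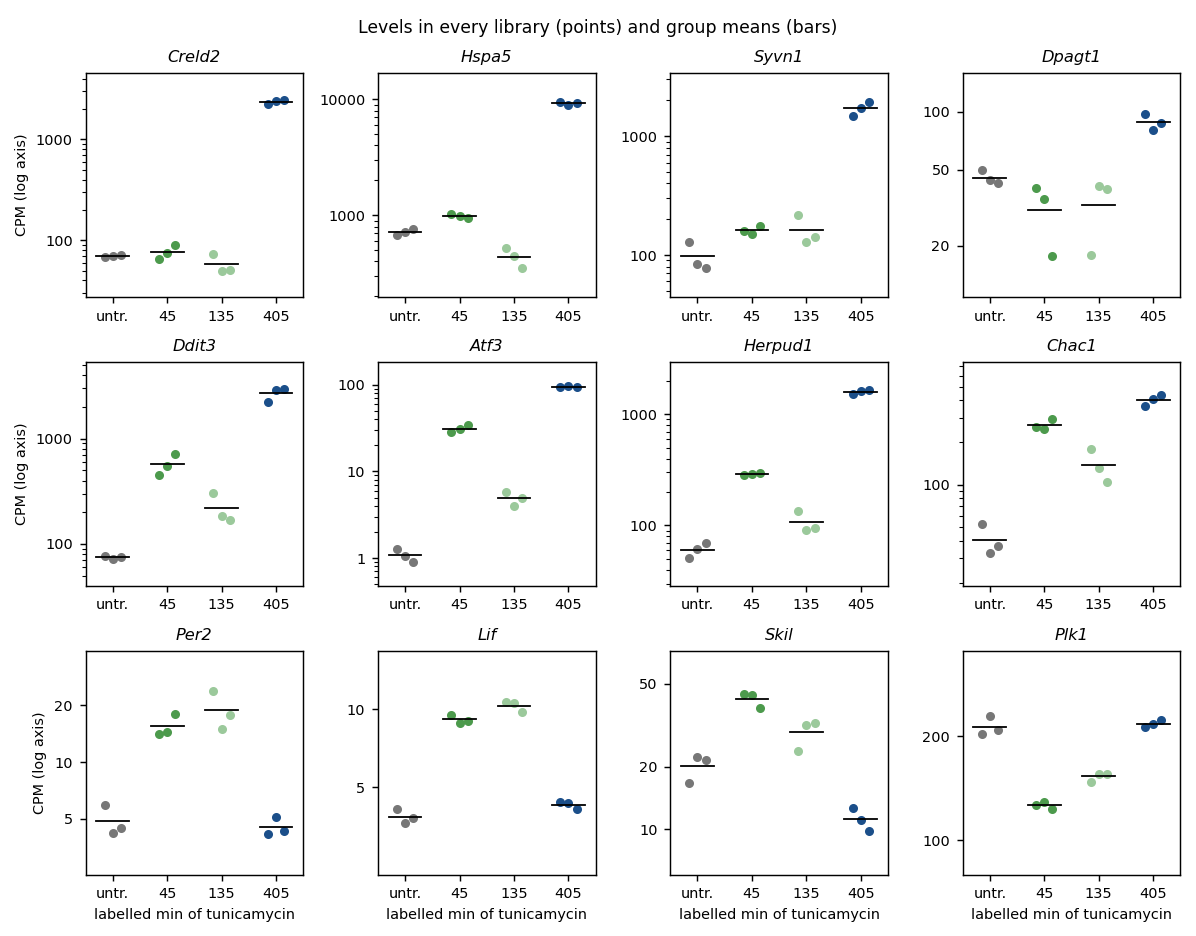
CPM on a log axis in each library (points) and the mean of each group (bars) in untreated cells and at the labelled 45, 135 and 405 min of tunicamycin, for 4 genes that rose late (top), 4 that were already raised at 45 min (middle) and 4 that returned toward or past the untreated level (bottom). The 3 points of Hspa5 at 405 min (9481, 8992 and 9239 CPM) lie above all other libraries.

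ER chaperones and folding enzymes rose in the late step. Of 31 members tested, 27 were higher and 0 lower at 405 than at 45 min, against the 24.4% of all genes that were higher, with a median log2 fold change of 1.91 for the list and -0.06 for all genes. Against untreated cells, 1 member (Ero1l, the main ER oxidase, from 24.5 to 47.2 CPM) was called higher at 45 min and 26 at 405 min. Of all genes 4.23% and 21.7% were higher there. Without the untreated replicate 1 it was 4 higher and 2 lower at 45 min, with the median at 45 min turning from 0.04 to -0.12. Hspa5 (mm9 chr2:34627610-34632049) encodes BiP, the main HSP70 chaperone of the ER lumen. It had 1027, 990.2 and 951 CPM at 45 min and 9481, 8992 and 9239 CPM at 405 min, and the groups did not overlap (log2 fold change 3.22, SE 0.12, adjusted p = 1.49e-06). The untreated cells had 676, 713 and 767 CPM, below every library at 45 min, but that step did not pass the test (log2 fold change 0.46, adjusted p = 0.066; adjusted p = 0.0331 without the untreated replicate 1). At the label 135 min Hspa5 had 518, 443 and 349.6 CPM, below every untreated library.

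Hsp90b1, the HSP90 of the ER, had 680.1, 679.8 and 737 CPM at 45 min and 3836, 4036 and 3638 CPM at 405 min (log2 fold change 2.46, SE 0.11, adjusted p = 2.5e-06). The lectin chaperone Calr rose from 1885 ± 58.8 to 7567 ± 262 CPM (SD, n = 3; log2 fold change 2.005, SE 0.11, adjusted p = 5.64e-06), while its membrane-bound relative Canx had 496, 479.9 and 422 CPM at 45 min and 769.5, 554 and 487 CPM at 405 min, which did not pass the test but did with the length offset (log2 fold change 0.57) and without the replicate 3 of 405 min. Disulfide isomerases rose by amounts from 0.55 (Txndc5) to 3.27 (Pdia4, 241 to 2324 CPM) on the log2 scale. Tmx1, Dnajc1 and Dnajc10 were, with Canx, the 4 members that were not called, at log2 fold changes of 0.01, 0.09 and 0.29 for the former 3. With the offset for transcript length 29 members were higher and 0 lower.

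ER-associated degradation, which draws misfolded proteins back to the cytosol for the proteasome, rose mostly in the late step. Of 27 members tested, 20 (74.1%, against 24.4% of all genes) were higher and 0 (against 28.1%) lower at 405 than at 45 min (median log2 fold change 0.67). Syvn1 (mm9 chr19:6046662-6053710), the ubiquitin ligase HRD1 at the centre of the complex, had 129, 84.2 and 78.1 CPM in untreated cells, 159, 152 and 177 CPM at 45 min and 1477, 1740.1 and 1923 CPM at 405 min (log2 fold change 3.40, SE 0.14, adjusted p = 2.05e-06), and its step to 45 min was called only without the untreated replicate 1 (adjusted p = 0.0713 with it and 0.00541 without). Its partner Sel1l rose from 152 ± 9.25 to 906 ± 100.1 CPM and H47 (also named Vimp or Selenos), a partner of p97, from 36.8 ± 4.68 to 252 ± 29.6 CPM (SD, n = 3; log2 fold changes 2.58 and 2.78, adjusted p = 2.66e-06 and 3.7e-06). Herpud1 (mm9 chr8:96910400-96919258), an adaptor that organizes the complex, was the member called at 45 min against untreated cells. It had 51.1, 62.0 and 69.0 CPM in untreated cells, 286, 292 and 297 CPM at 45 min and 1516, 1608 and 1657 CPM at 405 min, with no overlap between any 2 of these groups (log2 fold change 2.27, SE 0.15, adjusted p = 0.000802 for 45 min against untreated; log2 fold change 2.45, SE 0.10, adjusted p = 2.05e-06 for 405 against 45 min). Vcp, the p97 segregase itself, went from 669 CPM in untreated cells to 406 and 573 CPM (log2 fold change 0.50 for 405 against 45 min, adjusted p = 0.0481), a call that was lost without the replicate 2 of 45 min or any replicate of 405 min.

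The ER stress sensors and the transcription factors they release rose in most cases. Of 12 members tested, 8 (66.7%, against 24.4% of all genes) were higher and 1 (8.33%, against 28.1%) lower at 405 than at 45 min. The rises lay between 0.51 (Atf6b) and 1.62 (Eif2ak3) on the log2 scale. Eif2ak3, the gene of PERK, had 28.3, 30.5 and 32.7 CPM at 45 min and 107, 91.2 and 82.4 CPM at 405 min (log2 fold change 1.62, SE 0.13, adjusted p = 2.5e-05), with 28.5, 28.6 and 31.7 CPM in untreated cells. Total Xbp1 mRNA (mm9 chr11:5420970-5425875), whose splicing was not measured here, had 41.3, 46.9 and 48.4 CPM in untreated cells, 81.8, 76.2 and 66.8 CPM at 45 min and 195, 192 and 215 CPM at 405 min and rose at both steps (log2 fold change 0.72, SE 0.14, adjusted p = 0.0275; log2 fold change 1.42, SE 0.11, adjusted p = 2.31e-05). Ern1, the gene of IRE1α, was higher at 45 min than in untreated cells (17.9 and 29.0 CPM, adjusted p = 0.0287), and its step to 33.5 CPM at 405 min did not pass the test (log2 fold change 0.21, adjusted p = 0.16), while it did with the length offset (log2 fold change 0.77) and without the replicate 3 of 45 min. Atf6 was called at 405 against 45 min (log2 fold change 0.63, adjusted p = 0.0101; 1.22 with the length offset), with 134, 127 and 97.9 CPM at 45 min and 222, 158 and 174 CPM at 405 min. The member called lower was Mbtps1, the site-1 protease that cuts ATF6 (log2 fold change -0.28), and that call was lost under 9 of 17 alternatives, among them the length offset, which turned the sign (0.26), and leaving out the replicate 2 or 3 of 45 min or the replicate 2 or 3 of 405 min.

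Most enzymes of N-glycosylation, the pathway that the drug blocks, rose in the late step. Of 41 members tested, 26 (63.4%, against 24.4% of all genes) were higher and 0 (against 28.1%) lower at 405 than at 45 min (median log2 fold change 0.64, with 0 to 2 lower when 1 library was left out). By edgeR 0 were called at 45 min against untreated cells (median -0.22), where 6.39% of all genes were called. At 45 min 2 were higher and 10 lower at an unadjusted p under 0.05, 1 was higher and 3 lower with DESeq2, and 1 was higher and 6 lower without the untreated replicate 1. At 405 min against untreated cells 20 were higher and 2 lower (9 lower without the untreated replicate 1). Of all genes 21.7% were higher and 25% lower there. Dpagt1 (mm9 chr9:44134928-44141683), whose product tunicamycin inhibits, had 49.5, 44.0 and 42.5 CPM in untreated cells, 39.8, 35.1 and 17.7 CPM at 45 min and 97.1, 80.5 and 87.8 CPM at 405 min (log2 fold change 1.52, SE 0.26, adjusted p = 0.00143). The groups at 45 and 405 min did not overlap, and the replicate 3 of 45 min lay under the other two. Gmppb, which makes GDP-mannose, had 19.4, 22.1 and 26.1 CPM at 45 min and 67.9, 73.7 and 72.0 CPM at 405 min (log2 fold change 1.66, SE 0.13, adjusted p = 2.52e-05). The oligosaccharyltransferase subunits Rpn1 and Ddost rose by 1.48 and 1.23 on the log2 scale, while the catalytic subunits Stt3a and Stt3b were not called (log2 fold changes 0.17 and 0.19, adjusted p = 0.722 and 0.193). With the length offset Stt3b was called higher (log2 fold change 0.46), and with 1 library left out the value of Stt3a ran from -0.11 to 0.80, with a call without the replicate 1 of 45 min.

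Genes for entry into the ER and transport out of it rose in the late step as well. Of 49 members of the translocation and COPI/COPII list, 36 (73.5%, against 24.4% of all genes) were higher and 1 (Sec24b; 2.04%, against 28.1%) lower at 405 than at 45 min (median log2 fold change 0.91), with 0 lower under the length offset and 2 lower without the replicate 3 of 45 min. At 45 min against untreated cells 2 members were called, both lower (8 without the untreated replicate 1), where 2.15% of all genes were lower. They were the translocon subunit Sec61b, with 66.8, 60.8 and 66.7 CPM in untreated cells and 30.5, 38.3 and 34.8 CPM at 45 min (log2 fold change -0.91, SE 0.14, adjusted p = 0.013), and the signal peptidase subunit Spcs3 (log2 fold change -0.79). At 405 min Sec61b had 96.0, 125 and 143 CPM, above both groups (log2 fold change 1.81, SE 0.16, adjusted p = 4.58e-05 for 405 against 45 min; 1.20 with the length offset). Sec11c, a catalytic subunit of signal peptidase, rose from 4.57 ± 0.412 to 21.5 ± 2.11 CPM and the cargo receptor Surf4 from 337 ± 18.3 to 931 ± 59.6 CPM (SD, n = 3; log2 fold changes 2.23 and 1.47, adjusted p = 8.76e-06 and 1.58e-05). The COPI coat subunits Copb1, Copb2, Copg, Copa and Arcn1 were not called, and Copz1 and Cope rose by 0.75 and 1.09 on the log2 scale (0.69 for Cope with the length offset). Copa and Copg were called higher with the length offset, Copa also without the replicate 1 of 45 min, and Copb2 was called lower without the replicate 3 of 45 min.

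**Figure D3:**
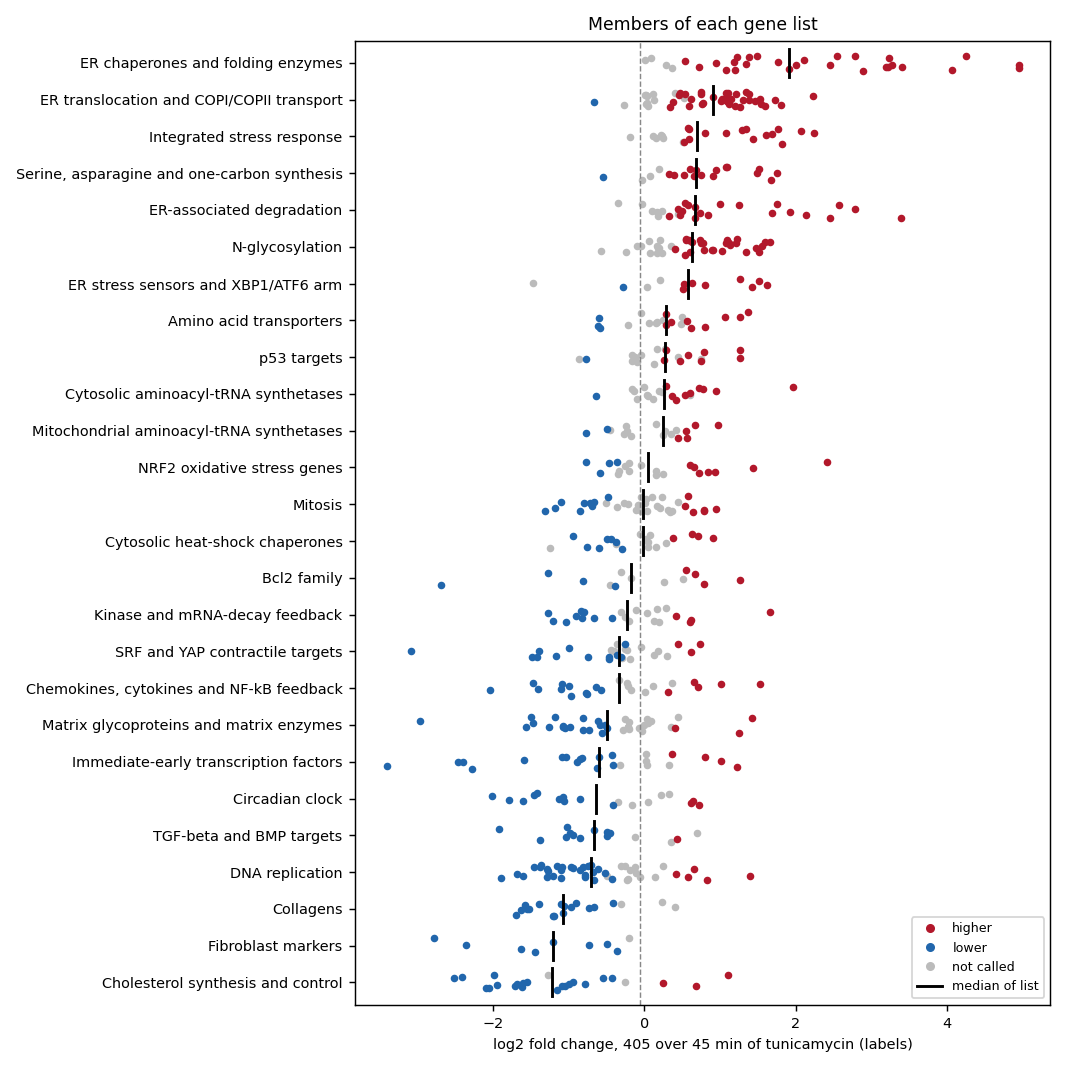
Log2 fold change at 405 over 45 min of tunicamycin for each tested member of 26 gene lists, coloured by whether it was called higher, lower or not called, with the median of each list (bar) and of all genes (dashed line). The list of ER chaperones has the highest median, at 1.91, and that of cholesterol synthesis the lowest, at -1.21.

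The integrated stress response was raised at 45 min and raised further at 405 min. Against untreated cells 18 of 22 members were higher and 0 lower at 45 min (median log2 fold change 1.64), where 4.23% of all genes were higher. At 405 min 21 were higher (median 2.08), where 21.7% of all genes were. Without the untreated replicate 1 the counts were 20 and 22, and without any of the other 5 libraries in turn 11 to 17 were higher at 45 min. Between 45 and 405 min 15 (68.2%, against 24.4% of all genes) were higher and 0 (against 28.1%) lower (median 0.70). In this list, as in those of ER chaperones, ER-associated degradation and N-glycosylation, 0 members were lower at 405 than at 45 min at an unadjusted p under 0.05 with edgeR, and 0 with DESeq2. At the label 135 min 3 members were called against untreated cells (median 1.07). Ddit3 (mm9 chr10:126727849-126733344), the gene of CHOP, had 76.2, 72.4 and 75.4 CPM in untreated cells, 448, 555 and 709.6 CPM at 45 min and 2209, 2925 and 2956 CPM at 405 min, with no overlap between the groups (log2 fold change 2.94, SE 0.19, adjusted p = 0.000802 for 45 min against untreated; log2 fold change 2.24, SE 0.19, adjusted p = 4.19e-05 for 405 against 45 min). Atf3, whose levels stand above, rose by 4.86 and then by 1.61 on the log2 scale (mm9 chr1:192994176-193007212; adjusted p = 8.09e-05 and 1.07e-05). Fgf21, a secreted metabolic hormone, had 0.569, 0.466 and 0.74 CPM in untreated cells, 6.92, 6.81 and 7.44 CPM at 45 min and 22.6, 28.6 and 38.1 CPM at 405 min (log2 fold change 2.08, SE 0.19, adjusted p = 5.43e-05 for 405 against 45 min).

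Atf4, the transcription factor of this branch, which is controlled mainly in translation, had 487, 511 and 498 CPM in untreated cells, 866, 812 and 874 CPM at 45 min and 1410.5, 1457 and 1579 CPM at 405 min and was called at both steps (log2 fold changes 0.77 and 0.80, adjusted p = 0.0133 and 0.000314; the latter became 0.53 with the length offset). Myd116, also named Gadd34 or Ppp1r15a, encodes the subunit that brings a phosphatase to eIF2α, and it had 221, 223 and 264 CPM at 45 min and 747, 802 and 865 CPM at 405 min, against 30.8, 29.8 and 31.0 CPM without the drug (log2 fold change 1.77, SE 0.12, adjusted p = 1.13e-05). The growth arrest gene Gadd45a had 14.6, 193 and 408 CPM on average (log2 fold change 1.08 for 405 against 45 min, 0.65 with the length offset).

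For other members the late step was smaller or not called. Chac1, which degrades glutathione, had 259.6, 249.7 and 293 CPM at 45 min and 365, 409 and 439 CPM at 405 min, after 52.5, 32.5 and 36.7 CPM in untreated cells (log2 fold change 0.60, SE 0.11, adjusted p = 0.00216; 0.30 with the length offset). Trib3, a pseudokinase that feeds back on ATF4, had 248, 282 and 341 CPM at 45 min and 394, 434 and 425 CPM at 405 min (log2 fold change 0.53, SE 0.13, adjusted p = 0.00833), and this call did not hold with the length offset (log2 fold change 0.34). Vegfa and Sesn2 were raised at 45 min (log2 fold changes 1.84 and 1.57 against untreated cells, adjusted p = 0.0011 and 0.00309) and did not pass the test between 45 and 405 min (log2 fold changes 0.25 and -0.19, adjusted p = 0.0872 and 0.17), although Vegfa did with the length offset (log2 fold change 0.40) and without the replicate 3 of 45 min. The transcription factor Atf5 and the translation repressor Eif4ebp1 rose between 45 and 405 min (log2 fold changes 1.44 and 1.29, adjusted p = 0.00125 and 9.57e-05; 0.78 for Eif4ebp1 with the length offset), and their log2 fold changes at 45 min against untreated cells were -0.48 and 0.30 (adjusted p = 0.498 and 0.349; 0.0361 for Eif4ebp1 without the untreated replicate 1). Without that library the value of Atf5 turned to 0.20 (adjusted p = 0.401).

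Enzymes that make amino acids rose in the late step. In the list of serine, asparagine and one-carbon synthesis 15 of 19 members tested (78.9%, against 24.4% of all genes) were higher at 405 than at 45 min and 1 (Mthfd1; 5.26%, against 28.1%) lower (median log2 fold change 0.68). At 45 min 1 (Gpt2) was called against untreated cells, where 6.39% of all genes were called (5 higher and 3 lower without the untreated replicate 1). Got1, the cytosolic aspartate aminotransferase, had 157, 134 and 104 CPM at 45 min and 477, 401 and 459 CPM at 405 min (log2 fold change 1.76, SE 0.16, adjusted p = 4.58e-05). Psph, the last enzyme of serine synthesis, had 94.2, 95.3 and 85.8 CPM at 45 min and 248, 294 and 342 CPM at 405 min (log2 fold change 1.68, SE 0.13, adjusted p = 2.39e-05). Asns, asparagine synthetase, had 175, 303 and 288 CPM in untreated cells, 289, 208 and 166 CPM at 45 min and 354, 311 and 341 CPM at 405 min. Its groups at 45 and 405 min did not overlap, but the call (log2 fold change 0.60, SE 0.18, adjusted p = 0.0223) was lost without the replicate 2 of 45 min, without the replicate 1 or the replicate 3 of 405 min, with the length offset, with total counts and in a shared fit.

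Of the amino acid transporters 4 were higher and 1 lower at 45 min than in untreated cells (7 higher without the untreated replicate 1). Of all genes 4.23% were higher and 2.15% lower there. The transporters changed in both directions after that. At 405 against 45 min 9 of 20 members (45%) were higher and 3 (15%) lower, against 24.4% and 28.1% of all genes. Slc3a2, the common heavy chain of several transporters, had 303, 326 and 338 CPM in untreated cells, 845, 928 and 985 CPM at 45 min and 1942, 1989 and 1871 CPM at 405 min, rising at both steps (log2 fold change 1.51, SE 0.13, adjusted p = 0.00173; log2 fold change 1.07, SE 0.11, adjusted p = 8.26e-05). The glycine transporter Slc6a9 had 274, 133 and 144 CPM in untreated cells, 363, 357 and 434 CPM at 45 min and 959.9, 884 and 922 CPM at 405 min and was called at 405 against 45 min (log2 fold change 1.26, SE 0.11, adjusted p = 4.72e-05), while its step to 45 min was called only without the untreated replicate 1 (adjusted p = 0.0634 with it and 0.00317 without). Among cytosolic aminoacyl-tRNA synthetases, which charge tRNAs, 9 of 20 (45%) were higher and 1 (Mars) lower, led by Wars, from 114 ± 3.65 to 446 ± 32.0 CPM (SD, n = 3; log2 fold change 1.96, SE 0.10, adjusted p = 3.79e-06). By edgeR 0 of them were called at 45 min against untreated cells, where 6.39% of all genes were called (4 higher and 1 lower at an unadjusted p under 0.05, 2 higher with DESeq2, 3 higher and 1 lower without the untreated replicate 1). Of 17 mitochondrial synthetases 5 (29.4%) were higher, near the 24.4% of all genes, and 2 (11.8%) lower, against 28.1% of all genes. The 2 were 5 without the replicate 3 of 45 min and 1 without its replicate 2 or without the replicate 2 or 3 of 405 min.

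**Figure D4:**
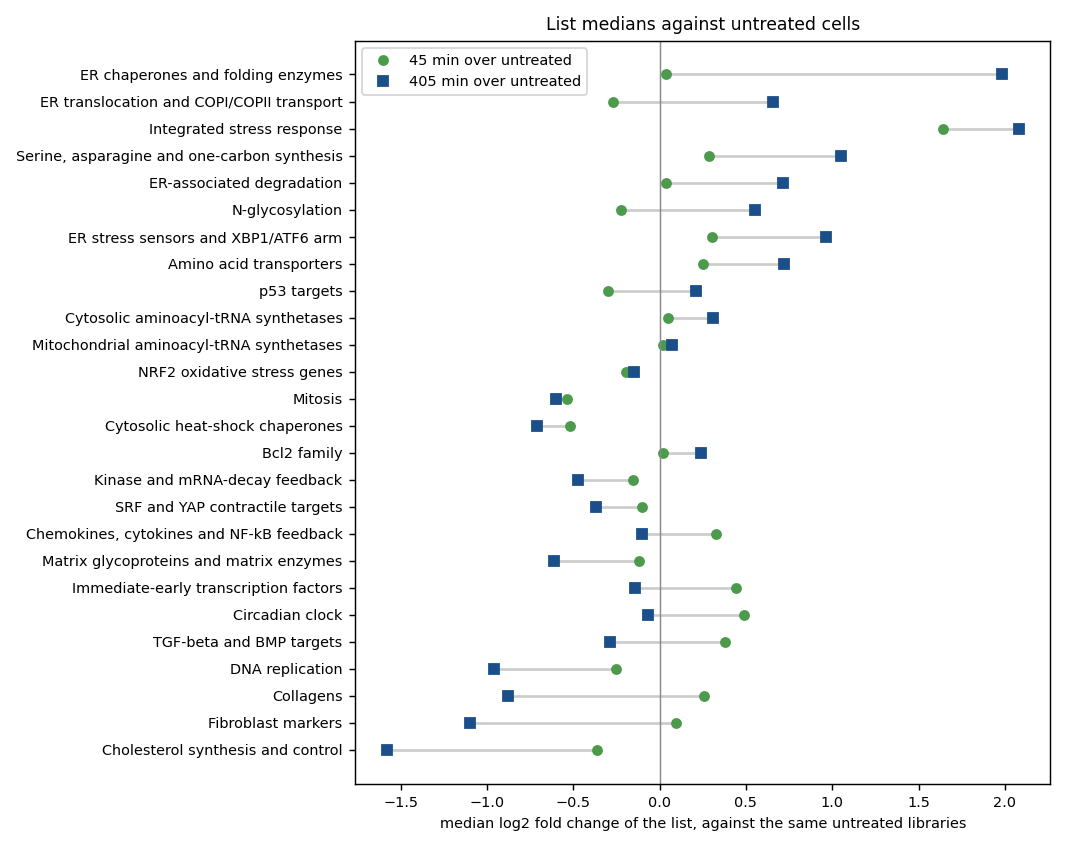
Median log2 fold change of each list at 45 min (circles) and at 405 min (squares) of tunicamycin, each against the same 3 untreated libraries. The integrated stress response stands at 1.64 and 2.08, the ER chaperones at 0.04 (-0.12 without the untreated replicate 1) and 1.98, and cholesterol synthesis at -0.36 and -1.58.

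Most of the genes that were raised furthest at 45 min were not called lower at 405 than at 45 min. The 10 largest rises at 45 min against untreated cells were Atf3, Gadd45a, Fgf21, Arid5a, Cdh3, Myd116, Ddit3, Socs2, Chac1 and Kcnk10. They were chosen on the libraries at 45 min, which the comparison with 405 min shares. In all 10 the log2 fold change at 405 min was larger against the samples labelled 135 min than against those labelled 45 min. It was 3.18 and 0.31 for Cdh3, 2.67 and 0.86 for Socs2 and 4.28 and 1.61 for Atf3. In the labelled order these genes were therefore not steadily raised. Of these 10, Arid5a, an RNA-binding protein that stabilizes cytokine mRNAs, was the only one called lower at 405 min. It had 8.22, 7.32 and 7.02 CPM in untreated cells, 70.5, 76.7 and 81.8 CPM at 45 min and 54.5, 65.0 and 62.7 CPM at 405 min (log2 fold change -0.33, SE 0.11, adjusted p = 0.0321), and this call was lost under 10 of 17 alternatives, among them leaving out the replicate 2 or 3 of 45 min or any replicate of 405 min. With the length offset the value was 0.13, and against the samples labelled 135 min it was 1.05. Kcnk10, a potassium channel gene, had a log2 fold change of -0.53 (adjusted p = 0.0554) that was called lower without the replicate 1 of 45 min and turned to 0.66 against the samples labelled 135 min.

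Of the circadian clock genes, 8 were raised at 45 min and 10 were lower at 405 than at 45 min. Of 18 members tested, 8 were higher and 0 lower at 45 min than in untreated cells (median log2 fold change 0.49), where 4.23% of all genes were higher. Without the untreated replicate 1 it was 10 members, and without any of the other 5 libraries in turn 3 to 6. In the late step 10 (55.6%, against 28.1% of all genes) were lower and 3 higher at 405 than at 45 min (median -0.64; 5 higher with the length or the GC offset), and at 405 min against untreated cells the median was -0.06. Per2 (mm9 chr1:93312559-93355905), a repressor of the clock, had 5.95, 4.19 and 4.46 CPM in untreated cells, 14.1, 14.5 and 18.1 CPM at 45 min and 4.13, 5.12 and 4.30 CPM at 405 min (log2 fold change -1.78, SE 0.16, adjusted p = 4.43e-05). The groups at 405 min and without the drug overlapped, and their difference did not pass the test (log2 fold change -0.11, SE 0.19, adjusted p = 0.676). Per3 had 7.27, 5.07 and 4.94 CPM in untreated cells, 14.2, 15.7 and 19.7 CPM at 45 min and 4.34, 4.39 and 3.55 CPM at 405 min (log2 fold change -2.01, SE 0.17, adjusted p = 3.49e-05). Bhlhe40, another clock repressor, had 87.0, 88.3 and 90.9 CPM at 45 min and 29.6, 30.6 and 27.8 CPM at 405 min, below every untreated library (40.4, 46.1 and 46.9 CPM; log2 fold change -1.60, SE 0.10, adjusted p = 7.59e-06). Not every clock gene came down. Nfil3 rose at both steps (19.6, 75.6 and 116 CPM) and Cry2 was raised at 45 min (log2 fold change 1.84, adjusted p = 0.00297) and did not pass the test between 45 and 405 min (log2 fold change -0.16, adjusted p = 0.345; 0.07 with the length offset).

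Several genes of cytokine and TGF-beta feedback were lower at 405 than at 45 min. Lif, a cytokine of the IL-6 family, had 4.11, 3.63 and 3.80 CPM in untreated cells, 9.51, 8.87 and 9.03 CPM at 45 min and 4.36, 4.32 and 4.13 CPM at 405 min (log2 fold change -1.10, SE 0.12, adjusted p = 0.000171), each of the latter above the untreated libraries but with a difference that did not pass the test (adjusted p = 0.434). Tnfaip3, the ubiquitin-editing protein A20 that restrains NF-kB, had 9.46, 14.0 and 12.2 CPM in untreated cells, 22.4, 20.6 and 20.5 CPM at 45 min and 9.09, 7.28 and 6.55 CPM at 405 min (log2 fold change -1.47, SE 0.15, adjusted p = 8.51e-05). Skil, a repressor of SMAD signalling, had 16.6, 22.2 and 21.5 CPM in untreated cells, 44.4, 44.2 and 38.1 CPM at 45 min and 12.7, 11.1 and 9.80 CPM at 405 min, and all 3 groups were apart (log2 fold change -1.92, SE 0.14, adjusted p = 1.59e-05). In the chemokine and NF-kB list 11 of 23 members (47.8%, against 28.1% of all genes) were lower and 5 (21.7%, against 24.4%) higher at 405 than at 45 min. The 5 were 3 with the length offset, with total counts, in a shared fit, and without the replicate 2 of 45 min or the replicate 2 or 3 of 405 min. At 45 min 7 were higher than in untreated cells, where 4.23% of all genes were higher (11 without the untreated replicate 1 and 0 to 2 without any of the other 5 libraries). The subunit gene Relb went on rising, from 15.1 to 30.2 and 60.9 CPM (log2 fold change 1.01 for 405 against 45 min, adjusted p = 0.000359). In the TGF-beta and BMP list 11 of 15 (73.3%) were lower and 1 (Id3) higher, which was 0 with the length offset, in a shared fit and without the replicate 2 or 3 of 405 min.

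Immediate-early transcription factors, which are induced without new protein synthesis, were mostly lower at 405 min. Of 23 members, 14 (60.9%, against 28.1% of all genes) were lower and 4 (17.4%, against 24.4%) higher at 405 than at 45 min (median log2 fold change -0.60). At 45 min 6 were higher than in untreated cells, where 4.23% of all genes were higher (11 without the untreated replicate 1 and 3 to 6 without any of the other 5 libraries). Nr4a1, an orphan nuclear receptor, had 37.1, 26.1 and 26.8 CPM in untreated cells, 67.0, 65.0 and 66.2 CPM at 45 min, 196, 144 and 158 CPM at the label 135 min and 11.0, 13.8 and 12.8 CPM at 405 min, where every library was below every untreated one (log2 fold change -2.40, SE 0.12, adjusted p = 3.84e-06 for 405 against 45 min). Egr3, a relative of Egr1, had 5.04, 7.15 and 5.90 CPM in untreated cells, 8.42, 8.59 and 9.12 CPM at 45 min and 1.59, 1.78 and 2.05 CPM at 405 min (log2 fold change -2.27, SE 0.15, adjusted p = 1.22e-05), and 43.0, 33.7 and 30.2 CPM at the label 135 min. Jun, a subunit of AP-1, had 155, 154 and 162 CPM at 45 min and 52.3, 57.1 and 47.1 CPM at 405 min (log2 fold change -1.59, SE 0.10, adjusted p = 1.12e-05). Egr1 and Fos had log2 fold changes of -0.84 and -1.03 against the samples labelled 45 min (adjusted p = 0.00135 and 0.00373), and of -3.39 and -3.37 against those labelled 135 min. Myc, a growth-promoting transcription factor, rose at both steps, with 171, 213 and 191 CPM in untreated cells, 703, 639 and 742 CPM at 45 min and 808, 923 and 947 CPM at 405 min (log2 fold change 1.86, SE 0.14, adjusted p = 0.0011; log2 fold change 0.36, SE 0.11, adjusted p = 0.023). Its later call was lost with the length offset (log2 fold change 0.26) and without the replicate 2 of 45 min or the replicate 2 or 3 of 405 min. Klf4 was raised at 45 min (log2 fold change 1.53) and had means of 229.6 CPM at 45 min and 234 CPM at 405 min (log2 fold change 0.03, SE 0.10, adjusted p = 0.842).

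The 12 largest falls included genes of the cell surface and secreted proteins. Gas7, a growth arrest protein that binds the cytoskeleton, had 161, 132 and 135 CPM in untreated cells, 198, 222 and 231 CPM at 45 min and 19.4, 17.2 and 15.4 CPM at 405 min (log2 fold change -3.64, SE 0.13, adjusted p = 1.49e-06). Dkk3, a secreted glycoprotein of the Dickkopf family, had 30.0, 32.9 and 31.9 CPM at 45 min and 3.06, 3.06 and 2.62 CPM at 405 min (log2 fold change -3.44, SE 0.13, adjusted p = 1.49e-06). Sema7a, a membrane-anchored semaphorin, fell from 6.60 ± 0.452 to 0.596 ± 0.0985 CPM and the receptor gene Lgr6 from 2.79 ± 0.176 to 0.263 ± 0.111 CPM (SD, n = 3; log2 fold changes -3.46 and -3.38, adjusted p = 4.11e-06 and 2.6e-05). Plau, the urokinase gene, was already lower at 45 min (34.7 and 21.3 CPM) and came to 2.19 CPM at 405 min (log2 fold change -3.29, adjusted p = 3.7e-06). Among the others of the 12 were Grpr, Rgs4, Nr4a3 and the histone genes Hist1h2ab, Hist1h2af and Hist1h2ak. The histone genes have near-identical copies that share reads, and Grpr lay at 0.0322, 0.036 and 0.13 CPM at 405 min, close to the limit of detection, so the sizes of these falls are uncertain.

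Fibroblast markers fell at 405 min. Of 9 members, 8 were lower and 0 higher at 405 than at 45 min (also 0 at an unadjusted p under 0.05 and with DESeq2), against 28.1% of all genes lower (median log2 fold change -1.20, -0.71 with the length offset, where 7 were lower). The samples are of a single cell line and levels are relative to the other RNA of the same library. Neither the number of cells nor the RNA per cell was measured. The receptor genes Pdgfra and Pdgfrb led the list. Pdgfra had 342, 311 and 336 CPM in untreated cells, 335, 378 and 363 CPM at 45 min and 58.6, 50.3 and 48.8 CPM at 405 min (log2 fold change -2.77, SE 0.11, adjusted p = 2.05e-06), and Pdgfrb fell from 377 ± 55.0 to 74.0 ± 2.74 CPM (SD, n = 3; log2 fold change -2.35, SE 0.12, adjusted p = 4.41e-06). The surface marker Thy1 was not called (267 CPM at 45 min and 232 CPM at 405 min; log2 fold change -0.21, adjusted p = 0.0845) but was called lower with the length offset (log2 fold change -0.47).

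**Figure D5:**
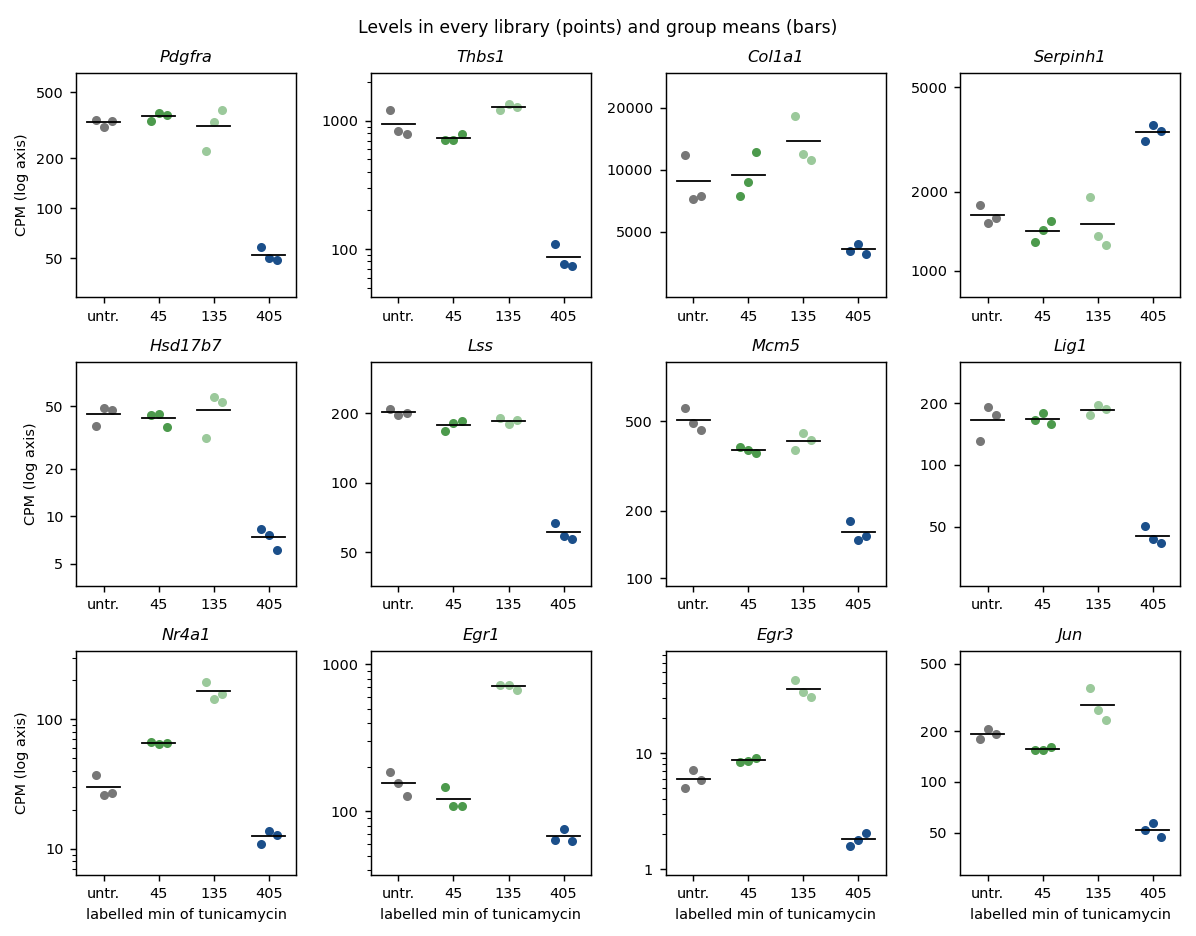
CPM on a log axis in each library (points) and group means (bars) for fibroblast and matrix genes (top), cholesterol and replication genes (middle) and immediate-early genes (bottom). All 3 libraries at 405 min lie below those at 45 min in each panel except Serpinh1, where they lie above. Egr1 is highest at the label 135 min.

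Most collagens were lower at 405 than at 45 min, and their transcripts are long. Of 19 collagens tested, 16 (84.2%, against 28.1% of all genes) were lower and 0 (against 24.4%) higher at 405 than at 45 min by edgeR (median log2 fold change -1.07), with 1 higher at an unadjusted p under 0.05, with DESeq2 and without the replicate 3 of 45 or of 405 min. With the length offset 11 were lower and 2 higher (median -0.65), and the median transcript length of the list was 6338 bases. Col1a1, the main chain of type I collagen, had 11784, 7222 and 7502 CPM in untreated cells, 7442, 8754 and 12162 CPM at 45 min and 4029, 4388 and 3921 CPM at 405 min (log2 fold change -1.20, SE 0.18, adjusted p = 0.000833; -0.71 with the length offset). The libraries at 45 min spread widely and still lay above all those at 405 min. Col3a1 had 772, 1179 and 1243 CPM at 45 min and 369, 388 and 279 CPM at 405 min (log2 fold change -1.62, SE 0.20, adjusted p = 0.000259). Of 35 matrix glycoproteins and enzymes 18 (51.4%) were lower and 3 higher (12 and 6 with the length offset), and Thbs1, thrombospondin 1, fell furthest among the contractile and YAP targets, with 712, 709.7 and 790.3 CPM at 45 min and 110.0, 77.0 and 73.4 CPM at 405 min (log2 fold change -3.09, SE 0.17, adjusted p = 5.22e-06). Serpinh1 was higher at 405 min. It encodes HSP47, the ER chaperone of procollagen, and had 1288, 1424 and 1547 CPM at 45 min and 3129, 3579 and 3419 CPM at 405 min (log2 fold change 1.25, SE 0.12, adjusted p = 6.87e-05).

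Genes of cholesterol synthesis and its control fell in the late step. Of 24 members tested, 19 (79.2%, against 28.1% of all genes) were lower and 3 (12.5%, against 24.4%) higher at 405 than at 45 min (median log2 fold change -1.21, the same with the length offset). Against untreated cells 2 were lower at 45 min (5 without the untreated replicate 1) and 21 at 405 min, where 2.15% and 25% of all genes were lower. Hsd17b7 (mm9 chr1:171879668-171899336), a reductase that helps remove the methyl groups of the sterol ring, had 37.4, 48.7 and 47.5 CPM in untreated cells, 44.2, 44.6 and 36.8 CPM at 45 min and 8.30, 7.62 and 6.06 CPM at 405 min (log2 fold change -2.51, SE 0.15, adjusted p = 8.32e-06). Lss, the synthase that closes the ring to lanosterol, had 167, 183 and 186 CPM at 45 min and 66.8, 58.8 and 57.2 CPM at 405 min (log2 fold change -1.55, SE 0.10, adjusted p = 1.22e-05), and both genes showed no overlap between the groups at 45 and 405 min. The members at 45 min that were called lower than in untreated cells were Insig1 and Acat2 (log2 fold changes -0.71 and -0.98, adjusted p = 0.042 and 0.0133). Ebp, Mvd and Fdps were the 3 that rose between 45 and 405 min (log2 fold changes 1.11, 0.69 and 0.25). With the length offset the value of Mvd was 0.43 and that of Fdps turned to -0.17 with no call, and the call of Fdps was also lost without any 1 replicate of 45 min, and without the replicate 2 or 3 of 405 min. Hmgcs1 was not analysed here.

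Genes of DNA replication were mostly lower at 405 min. Of 43 DNA replication members, 27 (62.8%, against 28.1% of all genes) were lower and 5 (11.6%, against 24.4%) higher at 405 than at 45 min (median log2 fold change -0.70). At 45 min 1 was lower than in untreated cells, where 2.15% of all genes were lower (11 without the untreated replicate 1 and 0 without any of the other 5 libraries). Mcm5, a subunit of the replicative helicase, had 385, 374 and 360.0 CPM at 45 min and 180.2, 149 and 155 CPM at 405 min (log2 fold change -1.21, SE 0.11, adjusted p = 4.21e-05), and Lig1, DNA ligase 1, had 166, 179 and 158 CPM at 45 min and 50.2, 43.8 and 41.9 CPM at 405 min (log2 fold change -1.89, SE 0.11, adjusted p = 6.47e-06). Mcm2, another helicase subunit, had 341, 373 and 417 CPM at 45 min and 401, 345 and 348 CPM at 405 min, which overlapped and did not pass the test (log2 fold change -0.05, SE 0.11, adjusted p = 0.739), and its sign turned with the length offset and without the replicate 3 of 45 min. Among 36 mitosis members, 9 (25%, against 28.1% of all genes) were lower and 6 (16.7%, against 24.4%) higher at 405 than at 45 min, with 6 to 13 lower when 1 library was left out and 12 higher with the GC offset. Against untreated cells 6 were lower at 45 min and 17 at 405 min, where 2.15% and 25% of all genes were lower. The counts were 26 and 28 without the untreated replicate 1, and 0 to 3 and 12 to 13 without any other library in turn. The medians were -0.54 and -0.60.

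Some mitotic genes that had fallen at 45 min rose again. Plk1, a mitotic kinase, had 203, 228 and 208 CPM in untreated cells, 126, 129 and 123 CPM at 45 min and 212, 217 and 223 CPM at 405 min (log2 fold change -0.76, SE 0.11, adjusted p = 0.013; log2 fold change 0.79, SE 0.09, adjusted p = 0.000136). The libraries at 405 min lay within the range of the untreated ones (log2 fold change 0.03, SE 0.11, adjusted p = 0.849). Cdc20, an activator of the anaphase-promoting complex, had 342, 399.6 and 378 CPM in untreated cells, 196, 218 and 232 CPM at 45 min and 405, 425 and 413 CPM at 405 min (log2 fold change 0.95, SE 0.10, adjusted p = 0.000109). The cyclin gene Ccnb1 had 129, 148 and 160.0 CPM in untreated cells, 68.6, 57.3 and 33.8 CPM at 45 min and 74.7, 65.7 and 62.3 CPM at 405 min, and it fell at 45 min (log2 fold change -1.45, SE 0.25, adjusted p = 0.0205) with no call between 45 and 405 min (log2 fold change 0.34, adjusted p = 0.229; 0.10 to 0.57 with 1 library left out). That step was called with the GC offset and without the replicate 1 of 45 min. The proliferation marker Mki67 and the kinetochore gene Cenpf fell between 45 and 405 min (log2 fold changes -1.31 and -1.18, adjusted p = 0.00113 and 0.000442; -0.59 and -0.42 with the length offset).

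Genes that fell furthest at 45 min were mostly not called higher at 405 than at 45 min. The 6 largest falls at 45 min against untreated cells were Actg2, Vip, Mycn, Tmeff2, Tm4sf1 and Ccnb1. Mycn, a MYC family transcription factor, had 3.26, 3.54 and 3.10 CPM in untreated cells, 0.639, 0.975 and 1.003 CPM at 45 min and 0.225, 0.0901 and 0.223 CPM at 405 min (log2 fold change -2.25, SE 0.34, adjusted p = 0.000753). At the label 135 min it had 4.96, 3.55 and 3.05 CPM, a range that overlapped that of the untreated libraries. Actg2, smooth muscle gamma-actin, had 14.8, 11.1 and 9.69 CPM in untreated cells, 1.81, 2.33 and 2.09 CPM at 45 min and 1.75, 1.42 and 1.54 CPM at 405 min, and its later step did not pass the test (log2 fold change -0.40, adjusted p = 0.0803), while it was called lower with the length offset (log2 fold change -0.78) and with total counts. The transmembrane protein gene Tmeff2 was the only one of the 6 that rose again with a call, from 0.879, 0.678 and 0.545 CPM to 1.61, 1.73 and 2.16 CPM (log2 fold change 1.37, SE 0.22, adjusted p = 0.00108).

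In the list named cytosolic heat-shock chaperones, 7 of 20 members (35%, against 28.1% of all genes) were lower and 4 (20%, against 24.4%) higher at 405 than at 45 min (median log2 fold change -0.02, of changing sign under other scalings). That list also holds the mitochondrial chaperones Hspd1 and Hspe1. Hspe1 was among the 4 higher members (log2 fold change 0.92, 0.36 with the length offset). The 7 were 3 to 4 without the replicate 2 of 45 min or the replicate 2 or 3 of 405 min and 2 in a shared fit, and the 4 were 2 without the replicate 2 of 405 min. Hspa1b, the inducible HSP70, had 6.49, 5.74 and 5.70 CPM in untreated cells, 1.66, 2.16 and 3.03 CPM at 45 min and 2.91, 2.67 and 2.75 CPM at 405 min and shares reads with its close copy Hspa1a. It fell at 45 min (log2 fold change -1.39, adjusted p = 0.0214) and was not called between 45 and 405 min (log2 fold change 0.29, adjusted p = 0.289; -1.30 against the samples labelled 135 min). Without the replicate 3 of 45 min that step was called higher, and its value ran from 0.11 to 0.54 with 1 library left out. In the NRF2 list 7 of 20 (35%) were higher and 4 (20%) lower, led by the heme oxygenase Hmox1, from 147, 156 and 164 CPM to 755, 830.2 and 895 CPM (log2 fold change 2.41, SE 0.11, adjusted p = 2.5e-06). The 4 lower ones were 2 without the replicate 2 of 45 min or the replicate 2 or 3 of 405 min and 7 without the replicate 3 of 45 min.

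Among p53 targets 8 of 20 (40%, against 24.4% of all genes) were higher and 1 lower, and the 8 were 4 without the replicate 2 of 405 min, in a shared fit and against the samples labelled 135 min. Bax, a pore-forming protein of the BCL-2 family, rose from 84.0, 103 and 108 CPM to 189, 257 and 263 CPM (log2 fold change 1.26, SE 0.15, adjusted p = 0.000249; 0.77 with the length offset), whereas Mdm2, the p53 ubiquitin ligase, had 90.3, 82.8 and 71.9 CPM at 45 min and 99.3, 90.0 and 87.1 CPM at 405 min and did not pass the test (log2 fold change 0.17, adjusted p = 0.226). In the BCL-2 family 4 of 13 (30.8%) were higher and 4 lower, near the 24.4% and 28.1% of all genes. Of its BH3-only genes, Bbc3 (PUMA), raised at 45 min, rose again (11.3, 27.5 and 47.8 CPM), a later call that was lost with the length offset (log2 fold change 0.80, 0.54 with the offset) and without the replicate 2 of 405 min, and Bmf and Bcl2l11 (BIM) fell (log2 fold changes -2.68 and -1.27 for 405 against 45 min). Of 22 genes of kinase and mRNA-decay feedback 9 (40.9%) were lower and 4 (18.2%) higher (14 and 2 against the samples labelled 135 min), with Spry4, an inhibitor of growth factor signalling, the lowest at -1.27. Of 26 SRF and YAP targets 12 (46.2%) were lower and 3 (11.5%) higher (7 lower in a shared fit, and 5 higher without the replicate 3 of 45 min).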

How the data were processed

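Poly(A) RNA of NIH3T3 DD-GFP cells was sequenced on an Illumina instrument, and the authors aligned the reads to the mouse genome mm9 and counted them over RefSeq genes on the DNAnexus platform. Each of the 18 files lists 20207 genes. The authors deposited the read count as an estimated count that need not be whole (rounded here), RPKM, a signal (RPKM normalized by its root mean square) and a score (Z score) for each gene, and the last 3 were not used in tests. The methods of the study describe 2 library protocols without saying which sample had which, and this cannot be told apart from other differences between samples. A gene was tested if it had at least 1 read in every sample (12731 genes). TMM factors were computed over the 12 untreated and tunicamycin samples, and the 6 samples of each comparison were fitted with edgeR 4.0.16 (R 4.3.3; quasi-likelihood test, Benjamini-Hochberg adjustment, calls at an adjusted p under 0.05). The SE is the log2 fold change divided by the square root of F. Levels are CPM on the TMM scale, except the sums of markers and the limit of detection, which are scaled to library totals only.

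The alternatives were 2 other filters on low counts, TMM within the 6 samples, DESeq2 size factors, total counts, the DESeq2 1.42.0 Wald test, a shared fit of the 12 samples, a replicate block, a GC offset, both together, each library left out, a log2 fold change of at least 1, the samples labelled 135 min in place of those labelled 45 min and, chosen after seeing the data, an offset for transcript length. For length and GC content the longest transcript of each gene in GENCODE on the mm9 assembly was taken, which covered 12443 of the genes tested. Named by rule were the 12 largest rises and falls at 405 against 45 min and the 10 largest rises and 6 largest falls at 45 min against untreated cells, among called genes with groups that do not overlap and a mean of at least 50 reads in the higher group. The rule also took the 4 members with the smallest p in each list and a few fixed genes, 149 in all. Some of them are not reported here. Other genes in the text are list members chosen after their values were seen. Members and lists were chosen with earlier results of these data known. Files differ in the coordinates of 741 genes. Intervals for counting error are not given, since PCR reads without molecular identifiers are not independent molecules.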

Additional observations from a re-analysis of the deposited data

Results flagged for a closer look

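For 6 genes the log2 fold change against untreated cells (labelled 0 min), called the effect here, had opposite signs at 45 and at 405 min. Both effects and their difference passed the test of edgeR at an adjusted p under 0.05. The difference of the effects, which is the log2 fold change at 405 against 45 min and shares samples with both effects, was -3.644 for Gas7 (0.60 at 45 min and -3.04 at 405 min against untreated), -3.381 for Lgr6 (1.26 and -2.12) and -2.397 for Nr4a1 (1.14 and -1.26). It was -1.916 for Skil (1.07 and -0.84), -1.596 for Bhlhe40 (0.997 and -0.60) and -1.471 for Tnfaip3 (0.83 and -0.64). In each of the 6 genes the 3 libraries at 45 min lay above, and those at 405 min below, the 3 untreated ones. The effect at 45 min lost its call in all 6 genes without the replicate 2 of 45 min, and that of Tnfaip3 at 405 min without the untreated replicate 2 or 3 or the replicate 2 or 3 of 405 min. No explanation was tested.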

How the results depend on the processing

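The counts at 405 against 45 min, 3110 higher and 3574 lower, stayed within 1.5 times under all alternatives but the minimum size (2349 to 3368 and 2716 to 4056 with 1 library left out, 2755 and 2537 with the length offset). With a log2 fold change of at least 1 they were 637 and 1363, and those against untreated cells 244 and 67 at 45 min and 1056 and 1507 at 405 min. The counts at 45 min against untreated cells, 539 higher and 274 lower, were 878 and 180 with total counts, 972 and 871 with DESeq2, 831 and 447 in a shared fit, 1049 and 928 with the GC offset, 11 and 1 with the samples labelled 135 min, and 55 to 1455 and 3 to 1054 with 1 library left out, the highest without the untreated replicate 1. With the replicate block they were 25 and 0 (edgeR; without the block 1412 genes were lower at an unadjusted p under 0.05), and 330 higher with the GC offset and the block. The replicate numbers showed no uniform pairing of the samples: the deviations of same-numbered samples had correlations of 0.315, -0.0838 and 0.0461 at 405 and 45 min, of -0.376, 0.271 and -0.405 at 45 min and in untreated cells and of -0.0501, 0.00932 and -0.129 at 405 min and in untreated cells, and not every sample correlated best with its own number. With 3 samples per group, single outlying libraries weigh on these values. They cannot decide whether same-numbered samples shared a batch. The block gave 3227 higher and 3704 lower at 405 against 45 min. Of 142 named genes that were called, 135 kept the call and the direction under the 17 alternatives other than the samples labelled 135 min and 7 did not (Arid5a, Vip, Tm4sf1, Taldo1, Cdh5, Asns and Trib3). With those samples the calls of 4 more were lost (Bag3, Aen, Ftl1 and Hist1h2af), so that 131 kept it throughout. Values that changed sign were those of Arid5a (0.128 with the length offset, 1.05 with the samples labelled 135 min), Kcnk10 (0.66 with those samples), Hspa1b (-1.30 with those samples) and Mcm2 (0.0717 with the length offset, 0.0295 without the replicate 3 of 45 min, and -0.122 to 0.0295 with 1 library left out). The causes of these shifts were not tested. Depth limits genes below about 0.07 CPM, where a library holds 3 reads or fewer.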

Other observations

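Genes that lacked a read in at least 1 of the 18 samples stood outside the test, and some of them had many reads at 405 min. Sspo, the gene of a large secreted glycoprotein, had 7, 2 and 0 reads in untreated cells, 21, 25 and 33 reads at 45 min, 5, 3 and 6 reads at the label 135 min and 1010, 973 and 1077 reads at 405 min. Klf15, a transcription factor gene, had 78, 84 and 85 reads at 45 min and 180, 188 and 181 reads at 405 min, and the cytokine gene Il23a had 6, 10 and 5 and then 113, 113 and 113 reads. These genes were chosen after their values were seen, and the reads are as counted, without scaling.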
